A study of Mus musculus with 18 samples.

Results

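Genes of B cell identity and maturation were followed through the immune cells of tumour-bearing mouse livers. The 9 genes, Cd79a, Cd79b, Ms4a1, Pax5, Cd22, Fcer2a, Cr2, Ly6d and Fcmr, were chosen by name from the 48440 gene identifiers of the count table. All 9 were found. Of these, 5 are here called pan-B genes (Cd79a, Cd79b, Ms4a1, Pax5 and Cd22), a pair (Fcer2a and Cr2) are genes of mature follicular B cells, and Ly6d and Fcmr stand apart from both. The treated groups were CD3-CD8-, CD3+CD8+ and CD3+CD8- cells from mice given PolyIC, a synthetic double-stranded RNA, and anti-PD-L1 antibody, by the treatment label. By the dosing notes PolyIC was given at 4 mg/kg and anti-PD-L1 at 200 µg, in 6 doses given every other day. The untreated groups were the same fractions from untreated mice, and each of the 6 groups had 3 libraries. All mice were wild-type C57BL/6J, bought at 7 weeks of age, with liver tumours raised by hydrodynamic tail vein injection of Ras and Myc oncogenes, and all cells were sorted as CD45+. The dosing notes also name 5 mg/kg of an antibody against VEGF-A, which the treatment label of the treated libraries does not. The labels do not say whether the 3 libraries of a group came from separate animals, so p-values measure only the spread between libraries.

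B cells recognise antigen through membrane immunoglobulin, which signals through the CD79A and CD79B chains. PAX5 holds the B lineage programme in place, and CD22 and CD20 (the product of Ms4a1) sit on the surface of most B cells after the earliest stages. As B cells mature in the spleen and enter follicles they gain CD21 and CD23, the products of Cr2 and Fcer2a, and the transcription factor Rbpj, which acts downstream of Notch receptors, is known to bear on both of these genes. In the liver, B cells are among the resident and passing leukocytes.

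Promoters of 6 of the 9 genes (Fcmr, Cr2, Pax5, Cd79a, Cd22 and Fcer2a) were found in RefSeq windows on GRCm38.p6, which run from 250 bases before to 50 bases after a gene's start, in 8 windows in all. Ms4a1, Ly6d and Cd79b were not among them. The windows of both mature follicular genes and of 1 pan-B gene are printed here to show where the letters of 5 factor motifs fall; capitals mark any match to CCCNNGGG (the core bound by Ebf1), ATGCAAAT (the octamer), TGGGAA (Rbpj), GAGGAA (a PU.1 core) or CAGGTG (an E-box of E2A), on either strand.
Cr2, chr1:195176670-195176969, minus strand: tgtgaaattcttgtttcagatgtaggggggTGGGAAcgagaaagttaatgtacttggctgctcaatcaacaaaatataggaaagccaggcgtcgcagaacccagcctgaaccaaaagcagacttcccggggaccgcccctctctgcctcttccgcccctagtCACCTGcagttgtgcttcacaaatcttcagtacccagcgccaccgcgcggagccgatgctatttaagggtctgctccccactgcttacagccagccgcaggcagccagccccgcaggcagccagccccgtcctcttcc
Fcer2a, chr8:3690812-3691111, minus strand: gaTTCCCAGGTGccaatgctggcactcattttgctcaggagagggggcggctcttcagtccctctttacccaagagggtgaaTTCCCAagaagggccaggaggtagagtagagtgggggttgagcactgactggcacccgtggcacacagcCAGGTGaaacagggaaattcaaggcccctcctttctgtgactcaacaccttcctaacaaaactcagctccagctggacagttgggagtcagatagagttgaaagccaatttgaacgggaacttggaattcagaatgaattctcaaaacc
Cd79a, chr7:24897247-24897546, plus strand: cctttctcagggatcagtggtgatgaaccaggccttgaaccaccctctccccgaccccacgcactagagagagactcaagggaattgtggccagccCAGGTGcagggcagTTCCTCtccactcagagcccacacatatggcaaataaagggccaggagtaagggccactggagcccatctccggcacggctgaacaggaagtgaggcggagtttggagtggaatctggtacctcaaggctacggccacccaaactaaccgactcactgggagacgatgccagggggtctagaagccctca
The Rbpj letters lay in 4 of the 8 windows, 1 of Cr2, 1 of Cd22 and 2 of the 3 of Fcer2a, against 25.6% of all 32851 windows. The E-box letters lay in 5 of 8 (20.2% of all windows), the PU.1 core in 2 (28.3%), the Ebf1 core in 1 (13.7%) and the octamer in 0 (1.74%). Of the 3 Fcer2a windows the 1 with the most matches is shown; the window at the gene's annotated start, chr8:3694125-3694424, holds 0 matches to any of the 5 motifs. In the Fcer2a window shown, 1 Rbpj match overlaps an E-box match. A match is a run of letters and not a measured site.

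The genes were far more abundant in CD3-CD8- cells than in either CD3+ fraction, which is where B cells, lacking CD3, should be sorted. Levels are CPM, the usual counts per library total, after TMM scaling over all 18 libraries. Ms4a1, which encodes CD20 (chromosome 19, 11249675 to 11266241), averaged 506.6 ± 76.8 CPM (SD, n = 3) in treated and 560.8 ± 26.9 CPM in untreated CD3-CD8- cells. In treated CD3+CD8+ and CD3+CD8- cells it averaged 4.795 ± 1.08 and 7.46 ± 2.74 CPM, and in untreated CD3+CD8+ and CD3+CD8- cells 127.9 ± 189.0 and 4.40 ± 2.65 CPM, with 345.3 CPM in 1 untreated CD3+CD8+ library, replicate 18. In the edgeR quasi-likelihood test of CD3-CD8- cells against the mean of both CD3+ fractions, all 9 genes were called higher in treated mice, against 2.22% of 13181 genes called higher, and all 9 in untreated mice, against 3.27%. A gene is called at a Benjamini-Hochberg adjusted p under 0.05 over all genes tested. The log2 differences ran from 1.89 (Ly6d, SE 0.47) to 6.43 (Ms4a1, SE 0.82) in treated mice and from 3.197 (Ly6d, SE 0.47) to 5.75 (Fcmr, SE 0.83) in untreated mice. In untreated mice all 9 were called in each of the 9 fits that left out 1 library, but the sizes moved: without untreated CD3+CD8+ replicate 18, Fcmr stood at 7.62, Fcer2a at 7.34 and Pax5 at 7.14, against lows of 5.41, 4.82 and 4.68 without untreated CD3+CD8+ replicate 5. Ly6d, at 3.05 to 3.43, moved little. Ly6d had the lowest difference in both. In treated mice its adjusted p was 0.0351, and it remained called in only 2 of the 9 fits that left out 1 treated library.

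**Figure D1:**
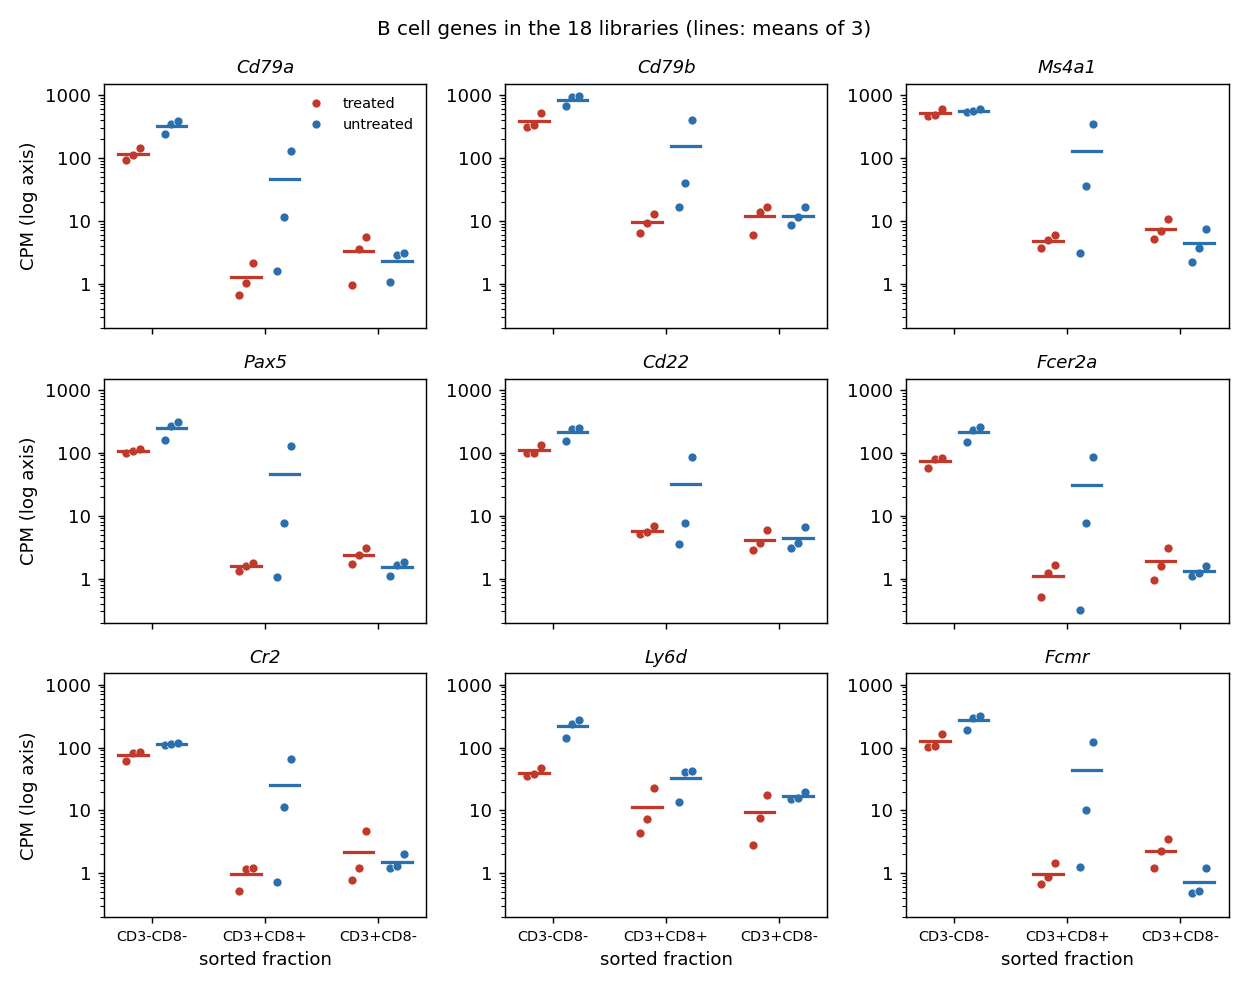
Level of each gene in the 18 libraries, in CPM on a log axis, by sorted fraction, with treated libraries left of untreated libraries in each fraction; points are libraries and lines are means of 3. Within treated and within untreated mice the mean of every gene is highest in CD3-CD8- cells, and in untreated CD3+CD8+ cells 1 library, replicate 18, lies far above the other libraries of both CD3+ fractions for 8 of the genes, with Ms4a1 at 345.3 CPM.

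Total counts per library ran from 1829155 to 28233682, and in CD3-CD8- libraries from 4158555 to 28233682. A count of 0 allowed up to 0.596 CPM in the shallowest CD3-CD8- library, counting error only. In 3 CD3+ libraries, treated CD3+CD8- replicate 2 and untreated CD3+CD8+ replicates 1 and 18, 84.0%, 87.0% and 79.7% of counts lay on a few ribosomal loci, which left between 486461 and 1654913 counts on other genes. Cd8a stood at 640.8 CPM in the library labelled untreated CD3+CD8- replicate 6, against 4.65 and 6.82 CPM in its group's remaining pair. The fraction labelled CD3-CD8- was not free of T cell RNA: Cd3e, a chain of CD3, averaged 237.7 ± 69.6 CPM in treated and 96.0 ± 38.8 CPM in untreated CD3-CD8- cells. Nor was it free of Cd8a, a chain of CD8, which averaged 782.3 ± 220 CPM in treated and 176.7 ± 114 CPM in untreated CD3-CD8- cells, with no overlap; in CD3+CD8+ cells it averaged 1247 ± 148 CPM in treated and 636.2 ± 344 CPM in untreated libraries. Ptprc, which encodes CD45, averaged 2146 ± 416 and 1300 ± 139 CPM in treated and untreated CD3-CD8- cells.

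In CD3-CD8- cells, 8 of the 9 genes fell with treatment, Ms4a1 being the exception. The background was 15.3% of the 13781 genes tested called lower. After correction for transcript GC content 2 of the 9, Cr2 and Ly6d, were called, against 1.02% of genes. All 9 log2 fold changes were negative both as counted and after that correction, with medians of -1.16 and -0.90, where the medians of all genes were -0.06 and 0.02. The values of 8 genes did not overlap between treated and untreated libraries, and 23.0% of all genes tested lay that way round with no overlap. Since the sorted cells are a mixture, fewer B cells and less of these RNAs per B cell cannot be told apart.

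The chains of the B cell receptor complex fell. Cd79a, which encodes the alpha signalling chain (chromosome 7, 24897381 to 24902197), had 109.1, 92.8 and 143.2 CPM in treated replicates 2, 11 and 19, against 239.4, 383.4 and 341.1 CPM in untreated replicates 1, 5 and 18. Every treated library lay under every untreated library. Its log2 fold change in edgeR was -1.52 (SE 0.25, adjusted p 0.0104). Fold changes come from the scaling of the 6 CD3-CD8- libraries alone, so they need not match the ratio of the CPM values exactly. Cd79b, the beta chain (chromosome 11, 106311341 to 106314762), had 307.4, 335.8 and 512.5 CPM in treated libraries, against 651.5, 914.6 and 941.2 CPM in untreated libraries. It fell by 1.16 on the log2 scale (SE 0.27, edgeR adjusted p 0.0213), again with no overlap. The GC-corrected log2 fold changes were -0.90 for Cd79a (edgeR adjusted p 0.0836) and -0.62 for Cd79b (edgeR adjusted p 0.204), neither of which passed.

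Pax5, the transcription factor that fixes B lineage identity (chromosome 4, 44524757 to 44710487), had 113.2, 106.1 and 97.7 CPM in treated libraries, against 159.9, 263.7 and 307.9 CPM in untreated libraries. The treated libraries lay close together and under all untreated ones, and the gene fell by 1.25 on the log2 scale (SE 0.27, edgeR adjusted p 0.0168). Cd22, an inhibitory coreceptor of the B cell receptor (chromosome 7, 30865402 to 30880342), had 98.5, 97.4 and 132.6 CPM in treated libraries, against 154.5, 245.4 and 239.4 CPM in untreated libraries. It fell by 1.001 (SE 0.24, edgeR adjusted p 0.0229). After GC correction Pax5 stood at -1.04 (edgeR adjusted p 0.0609) and Cd22 at -0.66 (edgeR adjusted p 0.135). Ms4a1 was the pan-B gene that did not pass. It had 471.3, 453.8 and 594.7 CPM in treated libraries, against 588.9, 558.4 and 535.2 CPM in untreated libraries, which overlap, with a log2 fold change of -0.18 (SE 0.18, edgeR adjusted p 0.479) and of -0.65 after GC correction (edgeR adjusted p 0.115).

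**Figure D2:**
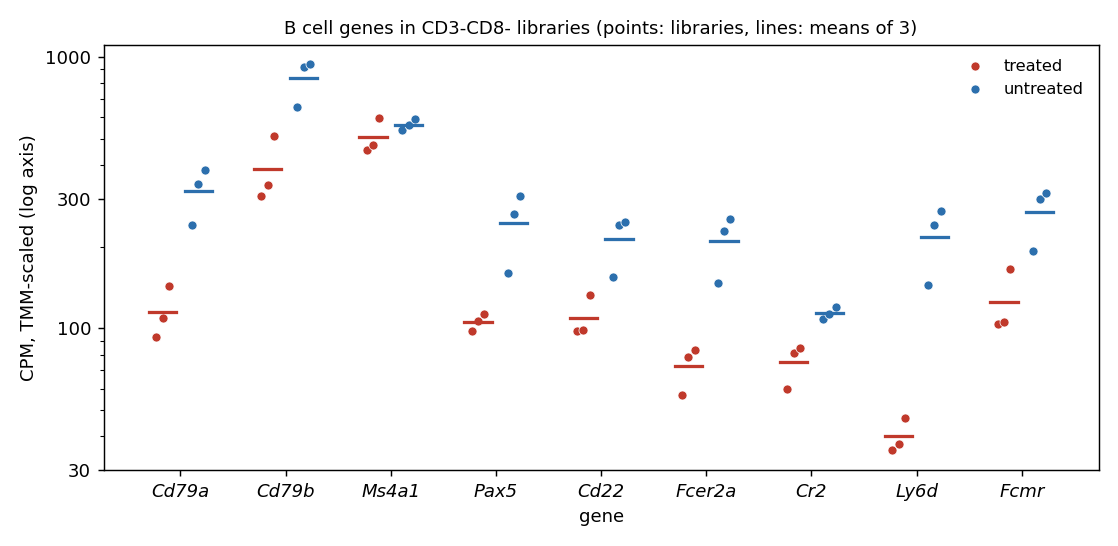
Level of each gene in CPM, on a log axis, in the 6 CD3-CD8- libraries, with treated libraries left of untreated libraries; points are libraries and lines are means of 3. Treated libraries lie under all untreated libraries for every gene but Ms4a1, and the gap is widest for Ly6d, at 35.7 to 46.7 CPM in treated and 144.0 to 270.1 CPM in untreated libraries.

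Both genes of mature follicular B cells fell. Fcer2a, which encodes CD23, the low-affinity IgE receptor (chromosome 8, 3681737 to 3694175), had 78.6, 56.6 and 83.4 CPM in treated libraries, against 147.4, 251.8 and 228.1 CPM in untreated libraries. It fell by 1.55 on the log2 scale (SE 0.26, edgeR adjusted p 0.0107), and after GC correction stood at -1.24 (edgeR adjusted p 0.0535). Cr2, which in mice encodes both complement receptors CD21 and CD35 (chromosome 1, 195136811 to 195176716), had 84.4, 60.0 and 81.4 CPM in treated libraries, against 120.0, 112.6 and 108.1 CPM in untreated libraries. The groups did not overlap, and the untreated libraries lay close together. Cr2 fell by 0.62 (SE 0.18, edgeR adjusted p 0.0388) and, after GC correction, by 1.05 (edgeR adjusted p 0.0479). As counted, it passed in none of the 6 fits that left out 1 library, with log2 fold changes between -0.73 and -0.46.

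Ly6d had the largest difference of the 9. It encodes a GPI-anchored surface protein that in mice marks lymphoid progenitors set toward the B lineage and stays on B cells (chromosome 15, 74762056 to 74763620). It had 37.6, 46.7 and 35.7 CPM in treated libraries, against 239.2, 270.1 and 144.0 CPM in untreated libraries. Its log2 fold change was -2.48 (SE 0.23, edgeR adjusted p 0.00732), and after GC correction -1.95 (edgeR adjusted p 0.0353). It was called in all 6 fits that left out 1 library, at -2.68 to -2.31. Fcmr, the Fc receptor for IgM (chromosome 1, 130865669 to 130880791), had 105.7, 103.5 and 165.7 CPM in treated libraries, against 192.4, 314.5 and 299.5 CPM in untreated libraries. It fell by 1.14 (SE 0.27, edgeR adjusted p 0.0233) and stood at -0.68 after GC correction (edgeR adjusted p 0.171).

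The size of a gene's change went with the GC content of its transcript, among all genes and among these. Over all genes tested in CD3-CD8- cells, the median log2 fold change was 0.59 under 40% GC, 0.38 from 40 to 45%, 0.08 from 45 to 50%, -0.34 from 50 to 55% and -0.88 from 55%. Ms4a1 and Cr2, the genes with the smallest fold changes as counted, have transcripts of 40.6% and 41.4% GC. The other 7 genes lie between 50.6% and 54.9%. With the correction, Ms4a1 and Cr2 moved down and the other 7 moved up, so that the 9 ran from -1.95 to -0.62. The count of genes called also rested on the libraries and the model. Without untreated replicate 5 only 1 of the 9, Ly6d, was called, without untreated replicate 18 there were 5, and without treated replicates 2 and 11 there were 3 and 4. With all 18 libraries in 1 fit 0 of 9 passed, Ly6d at an adjusted p of 0.0632.

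**Figure D3:**
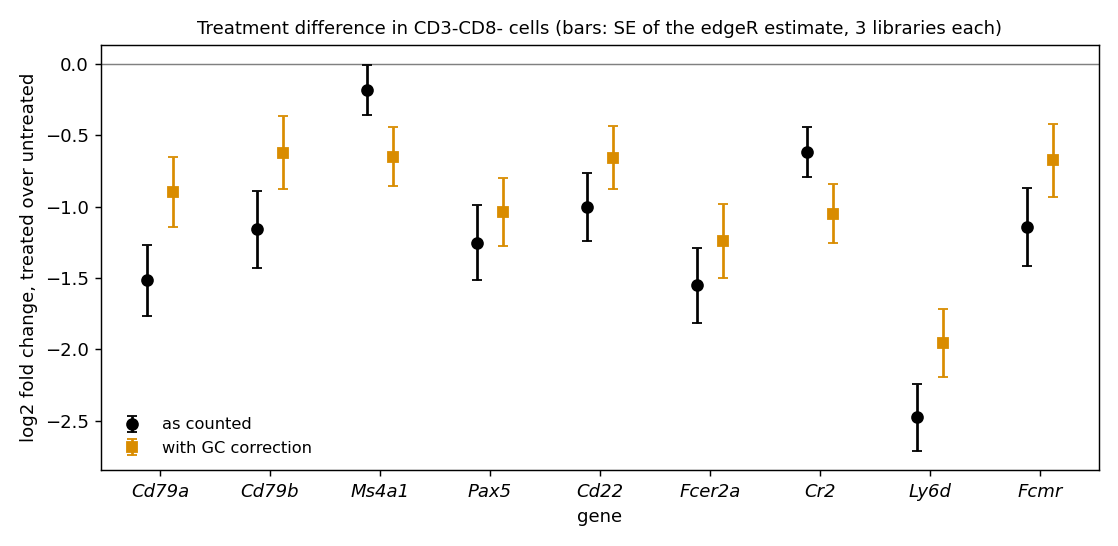
Log2 fold change of each gene, treated over untreated CD3-CD8- cells, as counted (circles) and with GC correction (squares), with bars for the SE of the edgeR estimate and 3 libraries in each group. All 18 estimates lie below 0, from -2.48 for Ly6d to -0.18 for Ms4a1 as counted, and Ms4a1 and Cr2 are the genes that the correction moves down.

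Levels can be compared between genes only per length, for which the authors' FPKM values served. In treated CD3-CD8- cells Cd79b was highest at 355.5 ± 104 FPKM (SD, n = 3), Ms4a1 next at 170.4 ± 33.7 FPKM, and Cr2 and Pax5 lowest at 15.1 ± 3.43 and 13.3 ± 2.55 FPKM, which overlap. In untreated cells Cd79b was also highest, at 818.0 ± 162 FPKM, and Pax5 and Cr2 were lowest at 31.9 ± 8.67 and 21.7 ± 3.09 FPKM, also overlapping. Ly6d ranked 5 of the 9 in treated cells, at 65.8 ± 7.21 FPKM, and 2 of the 9 in untreated cells, at 400.6 ± 165 FPKM, where it overlapped Cd79a, the next in order.

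The mature follicular genes were then set against the pan-B genes within each library, as the mean log2(CPM + 1) of Fcer2a and Cr2 minus that of the 5 pan-B genes. This difference was -1.12, -1.54 and -1.43 in treated replicates 2, 11 and 19, against -1.15, -1.30 and -1.40 in untreated replicates 1, 5 and 18. The means were -1.36 ± 0.22 in treated and -1.29 ± 0.13 in untreated libraries (SD, n = 3), a treated minus untreated difference of -0.08 with overlapping groups. On GC-corrected levels the means were -1.43 ± 0.22 and -1.05 ± 0.14, a difference of -0.39, and the groups overlapped by 1 pair of libraries, treated replicate 2 at -1.19 and untreated replicate 18 at -1.20. The difference as counted averages 2 genes that lay in opposite directions.

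Taken singly, Fcer2a and Cr2 did not move alike. Relative to the pan-B mean, Fcer2a was at -1.17, -1.58 and -1.42 in treated libraries, against -1.002, -0.73 and -0.87 in untreated libraries, with no overlap and a treated minus untreated difference of -0.52 on the log2 scale. On GC-corrected levels that difference was -0.48, again with no overlap. Cr2 was at -1.06, -1.50 and -1.45 in treated libraries, against -1.30, -1.88 and -1.94 in untreated libraries, a difference of 0.37, which turned to -0.29 after GC correction; its groups overlapped both ways. Ly6d was at -2.21, -1.85 and -2.62 in treated libraries, against -0.31, -0.63 and -1.53 in untreated libraries, a difference of -1.41 and, after GC correction, of -1.13, with no overlap either way. Fcmr differed by -0.13 with overlap. Ms4a1, itself 1 of the 5 genes in the mean, differed by 0.81 with no overlap, and by 0.12 with overlap after GC correction. Cd79a, also in the mean, differed by -0.50 with no overlap as counted, close to Fcer2a, and by -0.13 with overlap after GC correction. Cd22 differed by 0.03 with overlap, and by 0.12 with no overlap after GC correction. A lack of overlap was thus not particular to Fcer2a and Ly6d, and its share over all genes was not computed on this scale.

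**Figure D4:**
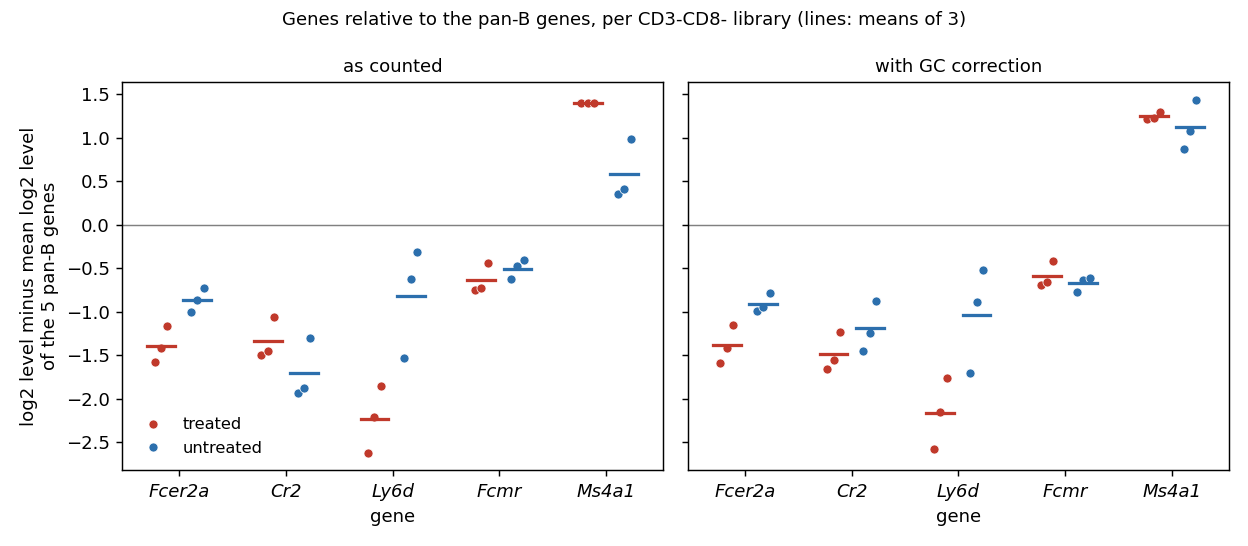
Log2 level of 5 genes minus the mean log2 level of the 5 pan-B genes in each CD3-CD8- library, as counted (left) and with GC correction (right), with treated libraries left of untreated libraries; points are libraries and lines are means of 3. Fcer2a and Ly6d are lower in all treated than in all untreated libraries in both panels, whereas the means of Cr2 differ by 0.37 as counted and by -0.29 with the correction.

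In CD3+CD8+ cells, 6 of the 9 genes passed the filter on low counts and none was called by edgeR, nor was any of the 10654 genes tested (background 0%). All 6 had negative log2 fold changes, from -4.98 (Cd79a, SE 1.34) to -1.52 (Ly6d, SE 0.65), with adjusted p-values from 0.460 to 0.804. All 6 had an unadjusted edgeR p under 0.05, as had 624 of the 10654 genes tested. DESeq2 and limma voom also called 0. The untreated libraries differed widely. Ms4a1 had 4.85, 5.84 and 3.69 CPM in treated replicates 2, 11 and 19, against 35.3, 3.03 and 345.3 CPM in untreated replicates 1, 5 and 18, of which replicates 1 and 18 were rich in ribosomal counts and had 28 and 186 counts of the gene. Ly6d did not follow the other genes there: untreated replicate 5, with 1.57 CPM of Cd79a, had 42.3 CPM of Ly6d from 405 counts. Without untreated replicate 5, 5 of the genes were called. Without untreated replicates 1 and 18, which leaves untreated replicate 5 alone, the log2 fold changes of Ms4a1, Pax5 and Cd22 turned to 0.65, 0.59 and 0.69.

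In CD3+CD8- cells 5 of the 9 genes passed the filter and 0 were called by edgeR, DESeq2 or limma voom, with 0 at an unadjusted p under 0.05 and 0% of 11197 genes called. Cd79b averaged 11.9 ± 5.29 CPM in treated and 12.1 ± 3.82 CPM in untreated cells of that fraction (SD, n = 3), and its log2 fold change was 0.009 (SE 0.46). Ly6d averaged 9.34 ± 7.41 and 16.99 ± 2.34 CPM. The treatment effect in CD3-CD8- cells was also tested against that in each CD3+ fraction. By edgeR 0 of 9 genes were called in either test, as were 0% of 13181 genes. An unadjusted edgeR p under 0.05 was seen for 6 of the 9 against CD3+CD8+ cells and 0 against CD3+CD8- cells. Of the 13181 genes 515 and 503 had such a p in these tests. In both tests limma voom called 0 of the 9, and DESeq2 called 0 of the 7 for which it gave a p, with none given for Cd79b and Ms4a1. A change confined to CD3-CD8- cells was thus not shown.

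Other genes of the B cell programme were read from lists. Their RNA was not confined to the fraction that holds B cells. The 15 transcription factor genes summed to 1452 to 1866 CPM in treated CD3+CD8+ and 1414 to 1788 CPM in treated CD3-CD8- cells. The 5 pan-B genes summed to 19.2 to 25.8 and 1086 to 1481 CPM there. In treated CD3-CD8- cells the transcription factor sum rested largely on Ets1 and Ikzf3, at means of 658.1 and 342.7 CPM. Both were named after their values were seen, and the sum does not describe every gene of the list. A change in these lists need not be a change in B cells, and which cells it came from was not tested. Of 20 genes of B cell receptor signalling, 10 fell and 0 rose in CD3-CD8- cells, all 20 with negative values and a median log2 fold change of -0.67 where all genes had -0.06; after GC correction 2 fell, 17 had negative values and the median was -0.56. Of all genes tested 15.3% were called lower as counted and 1.02% after GC correction. Plcg2, the phospholipase downstream of the receptor, averaged 56.3 ± 11.1 CPM in treated and 131.5 ± 13.5 CPM in untreated cells (log2 -1.27, SE 0.18). Ptpn6, the phosphatase SHP-1 recruited by CD22, stood at -1.18 (SE 0.16). The edgeR adjusted p-values were 0.00905 for Plcg2 and 0.00861 for Ptpn6, and neither passed after GC correction.

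Of 15 B cell transcription factors 11 fell and 0 rose, with a median of -1.03. After GC correction 5 fell and the median was -0.74. The shares of all genes called lower and higher were 15.3% and 10.2% as counted, and 1.02% and 1.10% after GC correction. The medians of all genes were -0.06 and 0.02. Tcf3, which encodes E2A, averaged 5.35 ± 1.37 CPM in treated and 30.2 ± 10.7 CPM in untreated cells (log2 -2.47, SE 0.31), and Bcl11a, needed for early B cell development, 20.9 ± 2.34 and 36.9 ± 4.18 CPM (log2 -0.86, SE 0.15). Both passed as counted (edgeR adjusted p 0.00826 and 0.0108) and after GC correction (edgeR adjusted p 0.0489 and 0.0392). Klf2, a regulator of lymphocyte trafficking, had -1.13 (SE 0.18), which turned to 0.15 after GC correction. Of 20 homing and survival receptors 8 fell and 1 rose, with a median of -0.60; after GC correction 1 fell and 0 rose. That was Cd40, the receptor for T cell help, at 14.3 ± 1.58 CPM in treated and 38.7 ± 7.95 CPM in untreated cells (log2 -1.46, SE 0.18; -1.43 after GC correction). Il4ra and Tlr9 stood at -1.40 (SE 0.18) and -1.48 (SE 0.18), and neither passed after GC correction.

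CR2 acts on B cells in a complex that includes CD81. Cd81 averaged 38.0 ± 10.6 CPM in treated and 100.2 ± 31.1 CPM in untreated CD3-CD8- cells and fell by 1.46 on the log2 scale (SE 0.30, edgeR adjusted p 0.0164; 0.0475 after GC correction). In this list of 10 complement receptor partners 3 fell and 1 rose as counted, and 1 fell and 0 rose after GC correction. Of all genes tested 15.3% were called lower and 10.2% higher as counted, and 1.02% and 1.10% after GC correction. Cfp, the complement regulator properdin, was also among those that fell as counted (log2 -1.76, SE 0.48), and did not pass after GC correction. Ighm, the mu heavy chain, averaged 1080 ± 262 and 2478 ± 655 CPM and fell by 1.24 (SE 0.30, edgeR adjusted p 0.0253; 0.115 after GC correction). Ighd, the delta chain of naive B cells, averaged 492.3 ± 91.0 and 803.6 ± 257 CPM and did not pass (log2 -0.75, SE 0.30, edgeR adjusted p 0.0980). Both were chosen after their values were seen.

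Lists of other stages of B cell life were read against the same shares of all genes, 15.3% lower and 10.2% higher as counted, and 1.02% and 1.10% after GC correction. These lists too were not confined to the fraction that holds B cells. The early and immature list summed to 652.1 to 868.8 CPM in treated CD3+CD8+ and 346.1 to 386.3 CPM in treated CD3-CD8- cells. In treated CD3-CD8- cells that sum rested largely on Spn, named after its values were seen, at a mean of 273.2 CPM. Rag1 and Vpreb1 averaged 1.65 and 0.46 CPM there, so the sum does not describe every gene of the list. Of 14 genes of early and immature B cells 9 were tested, and 2 fell and 0 rose, Vpreb3 at -1.74 (SE 0.35) and Cd93 at -1.10 (SE 0.30), with 0 called after GC correction; Cecr2 had -0.89 (SE 0.30) and did not pass. Of 13 tested genes of marginal zone and B-1 cells 4 fell and 2 rose, with a median of -0.16, and after GC correction 1 fell. Asb2 stood at -2.56 (SE 0.39) and Notch2, the receptor required for marginal zone B cells, at -0.79 (SE 0.17), while Plscr1 rose by 0.68 (SE 0.15). None of these 3 passed after GC correction, where Asb2 stood at -1.49, Notch2 at -0.30 and Plscr1 at 0.36. The 1 that fell after GC correction was Zcwpw1, named after its values were seen (log2 -0.69 as counted and -1.13 after GC correction, edgeR adjusted p 0.0414 and 0.0409). Of 11 tested germinal centre genes 1 fell and 1 rose, Bcl6 at -0.94 (SE 0.23) and Ezh2 at 0.62 (SE 0.15), with 0 called after GC correction; Fas had 0.92 (SE 0.29) and did not pass. Of 14 plasma cell genes 2 fell and 2 rose as counted, and 0 fell and 1 rose after GC correction. Sdc1, which encodes CD138, averaged 2.17 ± 0.65 CPM in treated and 7.81 ± 1.95 CPM in untreated cells, and Mzb1, a chaperone of antibody secretion, 37.6 ± 13.4 and 72.0 ± 14.1 CPM; neither passed after GC correction, at -1.22 and -0.48 on the log2 scale. Prdm1, which encodes Blimp-1 and is also used by T cells, averaged 45.3 ± 8.03 and 14.2 ± 4.41 CPM (log2 1.65, SE 0.25, edgeR adjusted p 0.00915; 0.0483 after GC correction).

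**Figure D5:**
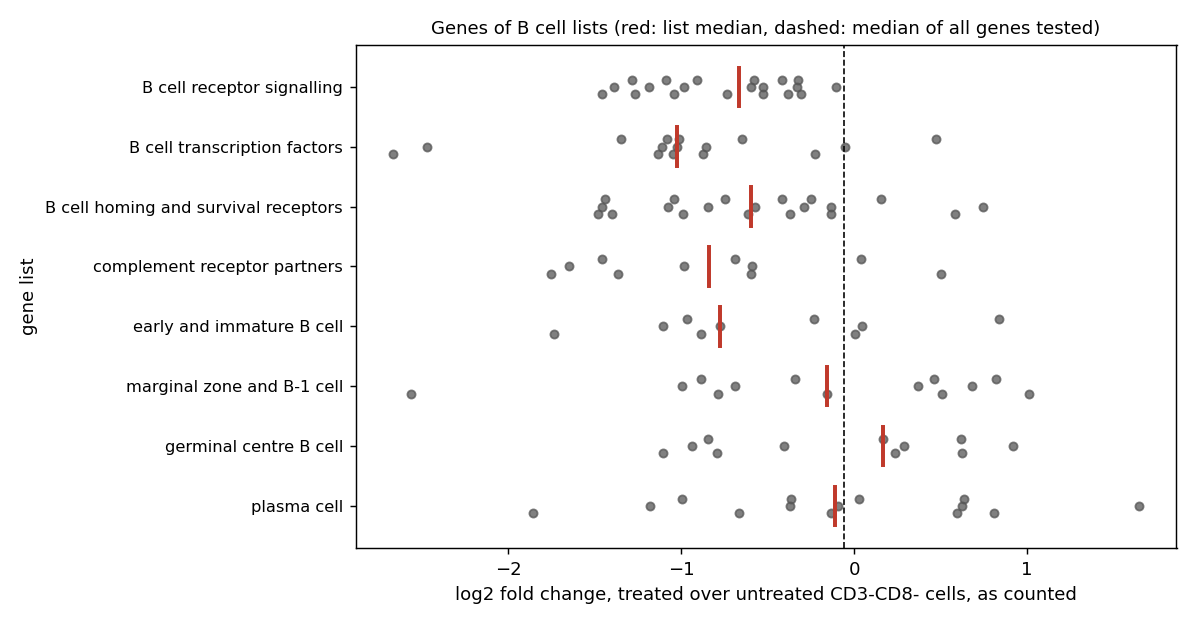
Log2 fold change of each tested gene in 8 B cell lists, treated over untreated CD3-CD8- cells as counted, with 1 point a gene, a red line at each list's median and a dashed line at the median of all 13781 genes tested, -0.06. Every gene of B cell receptor signalling lies below 0, and the lists of marginal zone, germinal centre and plasma cells spread to both sides.

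Markers of other cells moved in the same libraries. The summed level of 15 T cell genes was 4132 to 6266 CPM in treated and 1113 to 2596 CPM in untreated CD3-CD8- libraries. Of these genes 8 rose and 0 fell as counted, and 0 were called either way after GC correction. Their median log2 fold change was 0.87 as counted and 1.06 after GC correction, where 0 of the 15 were negative. Of all genes tested, 10.2% were called higher and 15.3% lower as counted, and 1.10% and 1.02% after GC correction. The sum of 11 NK cell genes ran from 3917 to 4887 CPM in treated and from 1894 to 2570 CPM in untreated CD3-CD8- libraries, with no overlap. That sum rested largely on Gzma, at means of 3225 CPM in treated and 921.6 CPM in untreated cells. It does not show a rise across the list. Of the 11 genes 8 were negative as counted and 7 after GC correction, with median log2 fold changes of -0.39 and -1.06. As counted 2 rose, Gzma at 1.77 (SE 0.26) and Eomes at 1.38 (SE 0.33), and 1 fell, Klrb1c at -1.31 (SE 0.36). After GC correction 2 rose and 0 fell. The sum of 10 neutrophil genes ran from 585.7 to 20300 and from 136.1 to 896.3 CPM, that of 10 Kupffer cell genes from 140.9 to 559.5 and from 424.1 to 1321 CPM, and that of the 5 pan-B genes from 1086 to 1481 and from 1794 to 2366 CPM. The sum of 13 plasmacytoid dendritic cell genes, a cell type that in mice can also carry Ly6d, ran from 256.0 to 531.9 and from 517.4 to 567.9 CPM. The 2 of these genes that fell as counted were Spib and Irf8, which are also in the list of B cell transcription factors. Siglech stood at 0.22 on the log2 scale (SE 0.54), and 9 of the 13 genes were negative. As counted, 3 of the neutrophil genes rose and 0 fell, and 5 of the Kupffer cell genes fell and 0 rose. After GC correction 0 of the neutrophil genes were called and 1 of the Kupffer cell genes fell. Median log2 fold changes as counted and after GC correction were 3.88 and 3.85 for neutrophil and -1.67 and -1.25 for Kupffer cell genes. All 10 neutrophil genes were positive and all 10 Kupffer cell genes negative both ways. Of the plasmacytoid dendritic cell genes 2 rose and 2 fell as counted, and 2 rose after GC correction. All genes of these 5 cell type lists passed the filter. Their most abundant genes were Cd3g, at 1495 ± 238 CPM in treated and 296.2 ± 144 CPM in untreated cells, Gzma, at 3225 ± 536 and 921.6 ± 227 CPM, S100a9, at 3732 ± 5632 and 178.2 ± 191 CPM, Cd5l, at 148.0 ± 102 and 194.0 ± 157 CPM, and Irf8, at 103.6 ± 37.4 and 183.2 ± 13.6 CPM; Irf8 is also used by B cells. The part of these cells in the B cell results was not tested.

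Over all 18 libraries Pearson's r between a gene's log2 CPM and the mean of the pan-B genes, leaving the gene itself out, was 0.98 to 0.99 for 8 of them and 0.80 for Ly6d. These values describe libraries that share fractions and depth, and the difference between fractions enters them. Within the 6 CD3-CD8- libraries r was 0.55 for Ms4a1, 0.83 for Cr2, 0.85 for Ly6d and 0.90 to 0.99 for the other 6. Over the 7935 genes whose log2 CPM averaged 3 or more, the 10 most like the pan-B mean included Gga2 (r = 0.984), Ralgps2, Tnfrsf13c, H2-DMb2, Pou2af1, Swap70, Bank1, H2-Ob and Siglecg (r = 0.961). In CD3-CD8- cells their log2 fold changes ran from -1.24 (H2-DMb2, SE 0.21) to -0.39 (Bank1, SE 0.20); the genes were chosen for following the pan-B mean over libraries that include these, so nothing is read from their sign. Of the 10, Pou2af1, a coactivator at octamer sites, and Swap70 passed the test both as counted (edgeR adjusted p 0.0130 and 0.0107) and after GC correction (edgeR adjusted p 0.0421 and 0.0459). The shares of all genes called lower were 15.3% and 1.02%. Since the way these genes were chosen bears on their calls too, nothing is read from the passes either.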

How the data were processed

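RNA of 18 libraries, in 6 groups of 3, was analysed from the deposited table of counts, which the authors gave as whole-number counts per gene identifier in 40 library columns, 22 of them left out here. FPKM values that the authors deposited served for symbols, positions, the order of levels and 1 alternative. Per the submitters' processing notes the tools were HTSeq 0.13.5, Trim Galore 0.6.7, DESeq2 3.20 and Cufflinks 2.2.1, with no role stated. An aligner or build is not given in the sources. Whether counting used strand is not stated. Positions are those of the FPKM table with 1 added to the start, as 90.48% of starts then matched GENCODE vM21 on GRCm38, and chromosomes matched for 100% of the identifiers found there.

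Groups follow the treatment label and the sorted fraction, and replicates are named by the number in the library name; 1 title repeats a digit and was taken as number 11. Treated and untreated libraries of a fraction were compared in edgeR 4.0.16 (R 4.3.3): filterByExpr, TMM, the two-sided quasi-likelihood F-test and Benjamini-Hochberg adjustment over all genes tested, called under 0.05. Fractions, and differences of treatment effects, were contrasts in 1 fit of the 18 libraries as 6 groups. The GC correction subtracts a smooth fit of log2 CPM on transcript GC content in each library, for the 99.79% of genes with a value. Levels set against the pan-B mean are log2(CPM + 1). The edgeR step was tested on simulated data.

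Genes named from lists were the up to 3 of smallest p in each pathway or stage list; the genes most like the pan-B mean left out 1 immunoglobulin segment. Some genes that these rules pick are not reported here. Of the cell type lists, 5 are described, by their summed level, their counts and their most abundant gene. Members, lists and tests were chosen with earlier results of these data known. Alternatives were DESeq2 size factors, library totals, other filters, DESeq2 1.42.0 in full, limma 3.58.1 voom with quality weights, limma on log2(FPKM + 1), the lane, GC correction, 1 fit of all libraries, a replicate block, removal of libraries rich in ribosomal counts and leaving out each library in turn.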

Additional observations from a re-analysis of the deposited data

How the results depend on the processing

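In CD3-CD8- cells 7 to 8 of the 9 genes were called lower with no filter, a stricter filter, size factors of DESeq2, library totals, DESeq2 in full, limma voom or the lane as a covariate. The count was 2 with GC correction, 0 with all 18 libraries in 1 fit, 1 with limma on log2(FPKM + 1) and 1 to 7 when each library was left out in turn. Log2 fold changes of all 9 genes stayed negative in each of these. The mature follicular minus pan-B difference, -0.08 as reported, was 0.26 against Cd79a and Cd79b only, -0.89 against Ms4a1 only, -0.52 with Fcer2a only, 0.37 with Cr2 only, -0.39 with GC correction and -0.20 to 0.011 with each library left out. The causes were not tested.

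In CD3+CD8+ cells 8 of 9 genes were called with no filter, and 0 to 5 with each library left out. Without the libraries rich in ribosomal counts Ms4a1, Pax5 and Cd22 turned to 0.65, 0.59 and 0.69; Cd22 ran from -3.05 to 0.19 with each library left out, the highest without untreated replicate 18, and Cd22 and Ly6d turned to 0.092 and 0.30 on FPKM. The treatment effect in CD3-CD8- minus that in CD3+CD8+ cells was positive for 8 genes and negative for Ly6d. With no filter 6 of 9 genes were called in it, and 1 in the test against CD3+CD8- cells. Without the libraries rich in ribosomal counts, which leaves untreated CD3+CD8+ replicate 5 as the only library of its group, it turned negative for all 8: Cd79a -1.36, Cd79b -0.34, Ms4a1 -0.76, Pax5 -1.82, Cd22 -1.64, Fcer2a -3.46, Cr2 -1.07 and Fcmr -0.92. With each library left out it ran from -0.14 to 4.12 for Cd79a, from -0.79 to 4.17 for Pax5, from -1.36 to 2.04 for Cd22 and from -1.39 to 3.68 for Fcer2a, in all 4 lowest without untreated CD3+CD8+ replicate 18, and from -1.35 to 0.068 for Ly6d, highest without treated CD3+CD8+ replicate 19. Cd22 also turned to -1.05 with library totals and -0.012 with limma voom. The lone library is assumed to vary like the other groups, so that reversal rests on 1 library.

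Libraries of the same code mostly deviated together from their group means. Of 16 pairs of the same code, 14 had a correlation of deviations over 0.1 and 2 did not (lowest -0.041, median 0.35, highest 0.56). Pairs of other codes had a median of -0.13. The rule used asked for a correlation over 0.1 in every pair, so the main fits had no block and treated libraries of a code as independent. With the code as a replicate block, 9 of 9 genes were called in CD3-CD8- against CD3+ cells in treated and in untreated mice, and 0 of 9 in both differences of treatment effects, as without it. Treated and untreated libraries share no code, so no block could be used between them. DESeq2 gave no p for Cd79b and Ms4a1 in the comparisons of fractions, where it called the other 7, or in the differences of treatment effects, where it called 0 of the other 7.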
